A study of Homo sapiens with 12 samples.

Results

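The interleukin-1 genes IL1A, IL1B, IL36G and IL36B, which encode agonist cytokines of the IL-1 family, and IL1RN, which encodes the family's receptor antagonist, were followed through RNA-seq libraries of THP-1 cells, a line from a human monocytic leukaemia. The 5 genes were chosen by name, and those found in either of the authors' deposited tables of LPS-responsive genes were described. Of the 5, IL1A, IL1B, IL1RN and IL36G were listed, each in both tables, among 3281 listed genes in all. IL36B was in neither table and was not measured here. A gene entered a table when the authors' adjusted p for LPS was below 0.01 and its log2 fold change was beyond 1 in either direction, so a change with LPS is what placed the 4 genes there.

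The 12 libraries form 4 groups of 3: S80A cells at 3 hr, WT cells at 3 hr, S80A cells at 0 hr and WT cells at 0 hr of LPS. S80A cells carry the form of NFKB1 in which a serine of the p50 subunit of NF-κB is replaced by alanine, and WT cells carry the unedited gene. Cells of all 4 groups were first driven towards a macrophage state with PMA, a phorbol ester, at 25 ng/ml for 72 hours and then rested for 4 days. LPS, a bacterial cell wall component sensed through TLR4, was given at 10 ng/ml. How the S80A line was made, and whether it is 1 clone, is not given in the sources used here, so the genotype and the line cannot be told apart. The labels do not say that replicates were separate cultures, so a p-value here reflects the spread among the libraries, which may be technical.

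IL-1α and IL-1β bind the same receptor, IL1R1, which recruits IL1RAP and signals through MYD88 and the IRAK kinases to NF-κB. The antagonist encoded by IL1RN occupies IL1R1 without recruiting the partner chain, so the balance of agonist and antagonist sets the signal. IL-1β is made as an inactive precursor that caspase-1 cleaves in inflammasomes, whereas the IL-1α precursor is active as made. IL-36γ, from IL36G, acts through IL1RL2 and is best known from keratinocytes and other epithelia. IL1B is a classical early LPS-induced gene of monocytes and macrophages.

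The 4 listed genes lie in 1 cluster on chromosome 2 (GRCh38, GENCODE release 29). IL1A runs from 112773915 to 112784590 and IL1B from 112829751 to 112836903, both on the minus strand. IL36G runs from 112973203 to 112985665 and IL1RN from 113107214 to 113134016, both on the plus strand. IL36B lies between these last genes, from 113022091 to 113052867 on the minus strand. The cluster spans 360102 bases and holds 9 family genes, of which 4 were listed. IL1RN has several annotated start sites, and the counts are per gene, so its secreted and intracellular forms cannot be told apart.

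The 250 bases before a RefSeq start of each listed gene (GRCh38.p14; for IL1RN the start nearest the secreted form) are shown because the genes share a cluster and an inducer but differed in how they varied with genotype. They are written 5′ to 3′ on the gene's own strand, with capitals marking matches to TTNNGNAA, a frame of C/EBP sites, and to TGANTCA, the AP-1 frame. The windows are chr2:112836780-112837029 on the minus strand for IL1B, chr2:112784494-112784743 on the minus strand for IL1A, chr2:112977756-112978005 on the plus strand for IL36G and chr2:113127239-113127488 on the plus strand for IL1RN.
IL1B: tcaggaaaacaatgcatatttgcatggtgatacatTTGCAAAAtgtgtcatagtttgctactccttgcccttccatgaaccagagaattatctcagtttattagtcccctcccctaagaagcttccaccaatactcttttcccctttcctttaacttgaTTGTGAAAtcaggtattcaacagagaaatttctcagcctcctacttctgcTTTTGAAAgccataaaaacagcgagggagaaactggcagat
IL1A: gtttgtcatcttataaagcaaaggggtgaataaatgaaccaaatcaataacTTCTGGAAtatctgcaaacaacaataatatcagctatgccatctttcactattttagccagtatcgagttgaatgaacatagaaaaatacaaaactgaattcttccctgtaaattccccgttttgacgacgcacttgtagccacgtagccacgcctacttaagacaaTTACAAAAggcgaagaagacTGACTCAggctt
IL36G: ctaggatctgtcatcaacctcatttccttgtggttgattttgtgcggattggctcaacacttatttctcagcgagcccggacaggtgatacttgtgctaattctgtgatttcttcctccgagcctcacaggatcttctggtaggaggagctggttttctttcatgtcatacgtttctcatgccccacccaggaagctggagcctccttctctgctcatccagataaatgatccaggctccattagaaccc
IL1RN: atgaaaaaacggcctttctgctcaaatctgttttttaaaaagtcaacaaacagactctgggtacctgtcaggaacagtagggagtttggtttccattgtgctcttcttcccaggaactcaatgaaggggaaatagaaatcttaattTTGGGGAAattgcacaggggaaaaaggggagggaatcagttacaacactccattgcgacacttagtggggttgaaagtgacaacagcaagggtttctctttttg

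On either strand, TTNNGNAA was found at 6 places in 3 of the 4 windows, and 33.2% of the 35116 RefSeq windows of the same length hold it. The IL1B window had 3 matches, counted from the start site as bases -215 to -208, -91 to -84 and -41 to -34. IL1A had matches at -199 to -192 and -32 to -25, and IL1RN had 1 at -104 to -97. TGANTCA was found in IL1A alone, at -12 to -6, against 6.57% of all windows. The GAGGAA core of PU.1 sites was found once, in IL36G at -138 to -133, against 23.6% of all windows. TATAAA was found once, in IL1A at -239 to -234, against 10.7%. GGG and CC separated by any 5 bases, a frame of NF-κB sites, was not in these 4 windows, while 54.4% of all windows hold it. No 2 of these matches overlap.

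Reads on listed genes, which are part of each library's depth, ranged from 4661457 to 5789918 in S80A cells at 3 hr, from 3644991 to 4468968 in WT cells at 3 hr, from 2072956 to 2914087 in S80A cells at 0 hr and from 1924562 to 2176975 in WT cells at 0 hr. Values below are scaled reads, meaning reads divided by the authors' size factor of the library (0.834 to 1.29). NFKB1, the edited gene, averaged 23198 ± 4621 scaled reads in S80A cells and 23290 ± 713 in WT cells at 3 hr (SD, n = 3 each), and a point edit leaves no mark on such a count. S80A replicate 1 stood apart from the other S80A libraries at both times, as its score on the second principal component was 16.9 (3 hr) and 16.7 (0 hr), whereas S80A replicates 2 and 3 scored 32.7 to 46.7. For the listed IL-1 family genes, calls that changed without it are given both ways.

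Before LPS, IL1B already carried reads in S80A cells, and it varied widely between the libraries of that group. IL1B had 152.4, 1802 and 4669 scaled reads in S80A replicates 1, 2 and 3 at 0 hr, against 90.9, 12.1 and 33.1 in WT replicates 1, 2 and 3. These values came from 153, 2323 and 4449 reads in S80A cells and 105, 15 and 41 reads in WT cells. Every S80A library lay above every WT library, but S80A replicate 1 lay nearer to WT replicate 1 than to the other S80A libraries. The S80A mean was 2208 ± 2286 and the WT mean 45.4 ± 40.8 scaled reads (SD, n = 3 each), a ratio of means of 48.7.

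The difference in IL1B at 0 hr was 4.98 ± 1.45 log2 (SE; S80A minus WT, on the log2(scaled reads + 1) scale), with a 95% interval of 1.34 to 8.63 and a limma adjusted p of 0.0519, which missed the threshold of 0.05. Without S80A replicate 1 it was 6.40 log2 with an adjusted p of 0.0118. With the replicate numbers entered in the limma fit as a block, the adjusted p was 0.104. In this bulk RNA, more cells with the transcript and more transcript per cell cannot be told apart.

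The other 3 listed genes were low or similar in the 2 genotypes at 0 hr. IL1A had 0, 0.776 and 3.15 scaled reads in S80A cells and 0, 0 and 1.61 in WT cells, that is 4 reads and 2 reads over each group. IL36G had 0, 2.33 and 2.10 scaled reads in S80A cells, from 5 reads, and none in any WT library. At this depth neither gene can be compared between genotypes with any precision. The ratio for IL1A was 2.24 with an exact 95% counting interval of 0.321 to 24.8, which covers counting error only. For IL36G the ratio was 1.87 when the WT group is set at a floor of 3 reads. That value leaves out the counting error of the 5 S80A reads, so it is not a lower bound.

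IL1RN, unlike IL1A and IL36G, was plainly detected before LPS in every library of both genotypes. It had 484, 1039 and 948 scaled reads in S80A cells and 994, 1367 and 1039 in WT cells, with means of 823 ± 297 and 1134 ± 204 (SD, n = 3 each). S80A replicate 1 was the lowest, and the other S80A libraries fell within or near the WT range, so the groups overlapped. The difference was -0.52 ± 0.34 log2 (SE), with a 95% interval of -1.37 to 0.32 and a limma adjusted p of 0.283. Without S80A replicate 1 it was -0.18 log2 (adjusted p = 0.496).

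Of the 4 genes, 0 passed the limma test between genotypes at 0 hr at an adjusted p under 0.05, where 30.7% of the 3281 listed genes did. The unadjusted limma p of IL1B was 0.0164. Over the same 6 libraries, IL1B passed with edgeR's quasi-likelihood test (adjusted p = 0.00624) and with DESeq2 (adjusted p = 9.73e-05) on the whole reads. IL36G missed the threshold at 1.12 ± 0.49 log2 (SE, adjusted p = 0.140) and passed without S80A replicate 1, at 1.68 log2 with an adjusted p of 0.00222. IL1A differed by 0.50 ± 0.66 log2 (SE, adjusted p = 0.586). The groups did not overlap for 1 of the 4 genes, IL1B, against 49.1% of all listed genes.

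**Figure D1:**
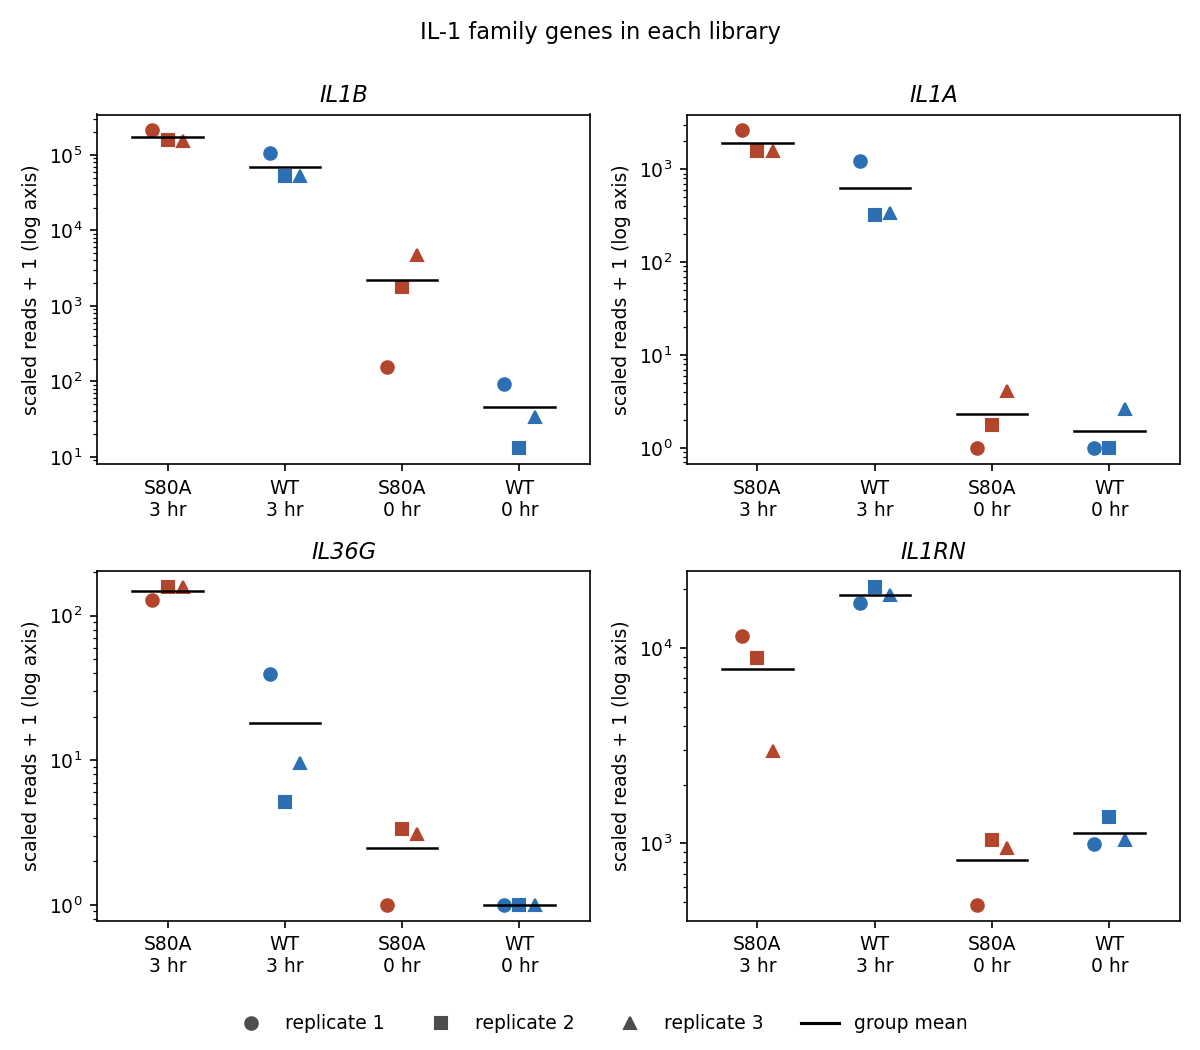
Scaled reads + 1 of the 4 listed genes in each of the 12 libraries (log axis), with 1 marker per replicate and a line at the group mean. At 3 hr the S80A libraries lie above the WT libraries for IL1B, IL1A and IL36G and below them for IL1RN, and at 0 hr IL1B runs from 152.4 to 4669 in S80A cells against 12.1 to 90.9 in WT cells.

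After 3 hr of LPS, the 3 agonist genes were higher and the antagonist gene lower in S80A cells than in WT cells. IL1B had 212176, 157342 and 153267 scaled reads in S80A cells at 3 hr, against 105883, 52257 and 51941 in WT cells. The means were 174262 ± 32898 in S80A cells and 70027 ± 31053 in WT cells (SD, n = 3 each), and replicate 1 was the highest library in both genotypes. The groups did not overlap, and the difference was 1.38 ± 0.33 log2 (SE; 2.61-fold) with a 95% interval of 0.59 to 2.18 and a limma adjusted p of 0.0148. The adjusted p was 0.0563 without WT replicate 2, 0.0583 without WT replicate 3 and 0.290 in a fit of all 12 libraries, and the direction was the same in all 16 alternatives.

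IL1A had 2625, 1578 and 1568 scaled reads in S80A cells at 3 hr, against 1227, 325 and 342 in WT cells. WT replicate 1 was again well above the other WT libraries, and it stayed below every S80A library. The difference was 1.86 ± 0.54 log2 (SE; 3.62-fold; 95% interval 0.56 to 3.15) with a limma adjusted p of 0.0295. That call is a narrow one: leaving out any library but WT replicate 1 gave adjusted p-values of 0.0580 to 0.0984, the first without S80A replicate 3 and the last without WT replicate 3.

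IL36G showed the widest separation of the 4 between genotypes at 3 hr relative to its error. It had 127, 156 and 156 scaled reads in S80A cells, against 38.8, 4.15 and 8.56 in WT cells, from 379 and 45 reads over each group. The S80A libraries lay close together, while WT replicate 1 was several times the other WT libraries. The difference was 3.55 ± 0.69 log2 (SE; 11.7-fold; 95% interval 1.90 to 5.20) with a limma adjusted p of 0.00674, and it passed in all 16 alternatives, with adjusted p-values of 6.68e-06 to 0.0294. The ratio of group means was 8.53.

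IL1RN ran the other way, with 11554, 8874 and 2976 scaled reads in S80A cells at 3 hr against 16974, 20547 and 18772 in WT cells. The WT libraries agreed closely, and the S80A libraries spread widely, with replicate 3 far below the others. The means were 7801 ± 4388 in S80A cells and 18764 ± 1787 in WT cells (SD, n = 3 each). The difference was -1.47 ± 0.49 log2 (SE; 95% interval -2.65 to -0.30) with a limma adjusted p of 0.0461. It was -0.89 log2 without S80A replicate 3 (adjusted p = 0.0325) and -1.86 log2 without S80A replicate 1 (adjusted p = 0.0198). The call was lost without S80A replicate 2 (adjusted p = 0.0656) or without WT replicate 1, 2 or 3 (0.0910, 0.123 and 0.113).

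At 3 hr 3 of the 4 genes passed as higher in S80A cells and 1 as lower, where 29.2% of the 3281 listed genes passed as higher, 17.7% as lower and 47.0% in either direction. Without S80A replicate 1 at 3 hr, 2 passed as higher and 1 as lower, since IL1A missed the threshold at an adjusted p of 0.0741. In that setting 1090 of the 3281 listed genes passed as higher and 698 as lower. The genotypes did not overlap for any of the 4 genes, against 59.0% of all listed genes. The median difference over all listed genes was 0.19 log2 at each time under the authors' scaling and near 0 when the reads were rescaled over the listed genes, and all 4 directions at 3 hr held under both rescalings.

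**Figure D2:**
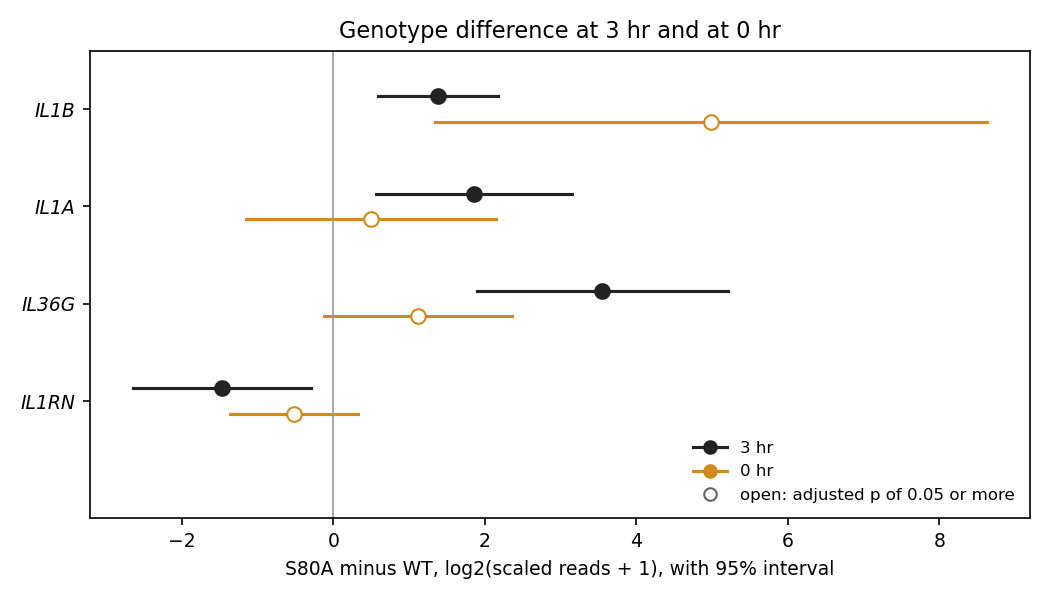
Difference between S80A and WT cells on the log2(scaled reads + 1) scale (x axis) for the 4 listed genes, at 3 hr and at 0 hr, with 95% intervals from limma. At 3 hr IL1B (1.38), IL1A (1.86) and IL36G (3.55) lie above 0 and IL1RN (-1.47) below it, and the 0 hr interval of IL1B, 1.34 to 8.63, is the widest drawn.

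The number of IL1B reads per IL1RN read within a library does not depend on the scaling, and it was higher in every S80A library than in any WT library of the same time. At 3 hr it was 18.4, 17.7 and 51.5 in S80A cells, against 6.24, 2.54 and 2.77 in WT cells. At 0 hr it was 0.315, 1.73 and 4.93 in S80A cells, against 0.0915, 0.00882 and 0.0318 in WT cells. The S80A libraries at 0 hr reached into the range of WT cells given LPS: replicate 3 lay above WT replicates 2 and 3 at 3 hr. These are read numbers not corrected for transcript length, so they compare libraries and not the amounts of the 2 transcripts.

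The geometric mean ratio was 7.26-fold higher in S80A cells than in WT cells at 3 hr and 47.1-fold higher at 0 hr, or 2.86 and 5.56 log2. A two-sided exact permutation test gave p = 0.1 at each time, the smallest that 3 libraries against 3 can give. This permutation test therefore cannot pass 0.05 with 3 libraries in each group, whatever the values. The test shuffled libraries freely between genotypes and did not use the pairing by replicate number taken at 0 hr. With each library left out in turn, the difference stayed between 2.35 and 3.27 log2 at 3 hr and between 4.65 and 6.63 log2 at 0 hr. IL1A reads per IL1RN read at 3 hr were 0.227, 0.178 and 0.527 in S80A cells, against 0.0723, 0.0158 and 0.0182 in WT cells, again without overlap.

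**Figure D3:**
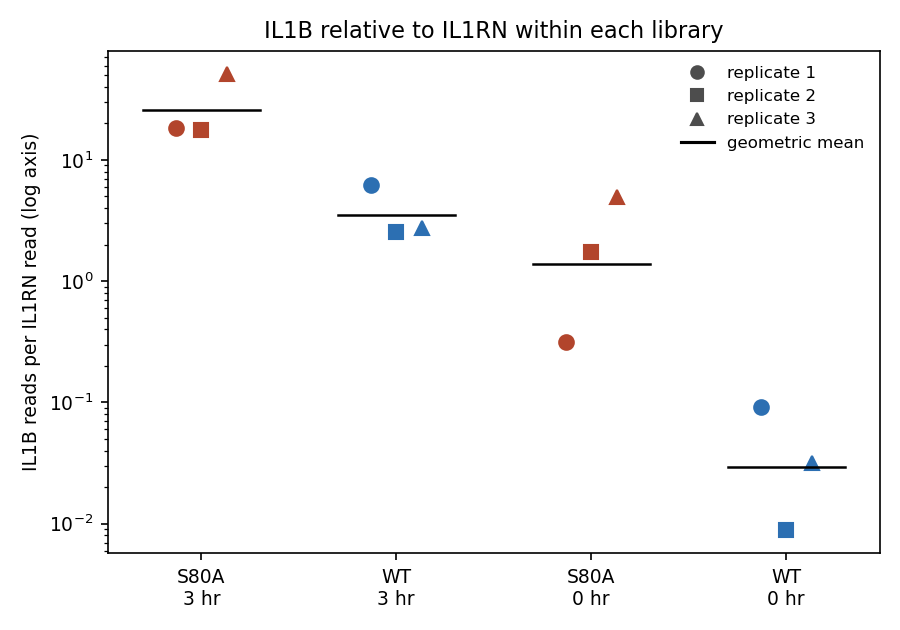
IL1B reads per IL1RN read in each library (log axis), with 1 marker per replicate and a line at the geometric mean of each group. The S80A libraries lie at 17.7 to 51.5 at 3 hr and 0.315 to 4.93 at 0 hr, above the WT libraries of the same time at 2.54 to 6.24 and 0.00882 to 0.0915.

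All 4 listed genes were among the rising genes of both tables. A change in either direction in 1 genotype was enough for a gene to be listed, so the rise in both is a description of the authors' calls. In the authors' deposited table, the log2 fold change of 3 hr over 0 hr was 8.46 for IL1A, 5.33 for IL1B, 3.10 for IL1RN and 5.60 for IL36G in S80A cells. In WT cells the authors' deposited table gives 7.47 for IL1A, 8.04 for IL1B, 3.87 for IL1RN and 4.06 for IL36G. Rising genes were 8.67% of the 17486 that the authors' p-values imply were tested in S80A cells and 8.24% in WT cells. The selection used these same libraries, so no further test of the rise is given.

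In scaled reads, IL1B averaged 174262 at 3 hr and 2208 at 0 hr in S80A cells, a ratio of 78.9, and 70027 at 3 hr and 45.4 at 0 hr in WT cells, a ratio of 1544. The ratio for IL1B was thus smaller in S80A cells although the level after LPS was higher. IL1RN had a ratio of 9.47 in S80A cells and 16.6 in WT cells. For IL1A the WT ratio was 1110 with an exact 95% counting interval of 307 to 9170, since WT cells had 2 reads at 0 hr, and in S80A cells it was 1471 on 4 reads. IL36G rose 99.2-fold in S80A cells, on 5 reads at 0 hr. In WT cells, which had none at 0 hr, it rose 19.9-fold over a floor of 3 reads, with its 45 reads at 3 hr taken as exact.

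The difference of the LPS response between genotypes was tested with the limma interaction term over the 1562 genes in both tables. Of the 4 genes, 0 passed at an adjusted p under 0.05, where 4.48% of the tested genes did. The replicate block changed none of these calls. Unadjusted limma p-values were 0.0310 for IL1B, 0.0206 for IL36G, 0.149 for IL1A and 0.162 for IL1RN. The LPS response of IL1B differed by -3.60 ± 1.46 log2 (SE; S80A minus WT; 95% interval -6.80 to -0.39; adjusted p = 0.199). Without S80A replicate 1 at 0 hr the value was -5.01 (adjusted p = 0.00995), and without S80A replicate 1 at both times, a setting chosen after seeing the data, it was -5.16 (adjusted p = 0.0133).

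For IL36G the difference of the response was 2.43 ± 0.90 log2 (SE, adjusted p = 0.159). It passed without WT replicate 1 at 3 hr (3.26, adjusted p = 0.0183) and with a pseudocount of 10 (2.54, adjusted p = 0.00678). With the count models it turned to -0.64 (edgeR, adjusted p = 0.831) and -0.22 (DESeq2, adjusted p = 0.991), and the gene has no reads in WT cells at 0 hr. IL1A differed by 1.36 ± 0.88 log2 (SE, adjusted p = 0.477) and IL1RN by -0.95 ± 0.64 log2 (SE, adjusted p = 0.487), and neither passed in any of 23 alternatives. DESeq2 gave 0.00480 as the adjusted p for IL1B, at -4.29 log2, and edgeR called 0 of the 4.

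Set in order of level, IL1B and IL36G ran from S80A cells at 3 hr through WT cells at 3 hr and S80A cells at 0 hr to WT cells at 0 hr, and so did IL1A. For IL1B no neighbouring groups in that order overlapped. For IL1A and IL36G the 2 groups at 0 hr overlapped. IL1RN was highest in WT cells at 3 hr, then in S80A cells at 3 hr, and its 2 groups at 0 hr overlapped. Per kilobase of annotated exon, the mean level in S80A cells at 3 hr was 56286 scaled reads for IL1B, 2396 for IL1RN, 906 for IL1A and 106 for IL36G. In WT cells at 3 hr the same levels were 22619 for IL1B, 5763 for IL1RN, 297 for IL1A and 12.4 for IL36G, so the order of the genes was the same. At 0 hr the mean level of IL1B per kilobase was above that of IL1RN in S80A cells, at 713 and 253. It was below that of IL1RN in WT cells, at 14.7 and 348. S80A replicate 1 had the order of WT cells, with 152.4 scaled reads for IL1B and 484 for IL1RN.

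Across the 12 libraries, the genes whose log2(scaled reads + 1) followed each member most closely were found by Pearson's r, as a description only, since LPS moves most listed genes and the points share libraries and depth. For IL1A these were CXCL1 (r = 0.996), DNAJB6 (0.994) and SDC4 (0.993). HEY1 (0.989), NFKBIE (0.985) and the chemokine gene CCL20 (0.984) were nearest to IL1B. The nearest to IL1RN were NFE2L3 (0.989), MASTL (0.987) and TRIM5 (0.985), and to IL36G they were SVIL (0.983), BHLHE40 (0.982) and PVR (0.978). No member was among the 3 genes nearest to another member: IL1A and IL1B had r = 0.930, and IL1RN had 0.793 with IL1B and 0.661 with IL36G.

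Over the 6 libraries at 0 hr alone, the genes nearest to IL1B were ZNF836 (r = 0.997), CCL20 (0.995), NFAT5 (0.993), LEF1 (0.993) and YRDC (0.991). CCL20, which encodes a chemokine for CCR6-bearing cells, had 21.9, 143 and 479 scaled reads in S80A replicates 1, 2 and 3, against 10.4, 2.41 and 6.45 in WT cells. Its lowest and highest S80A libraries were those of IL1B. The genes named here were picked by r over these same libraries, so such likeness to IL1B follows from the choice. LEF1, a transcription factor of Wnt signalling, had 45.8, 113 and 135 scaled reads in S80A cells, against 33.8, 20.1 and 22.6 in WT cells. IL36G had r = 0.914 with IL1B over these libraries, a value that rests on only 5 IL36G reads, all in S80A replicates 2 and 3. IL1RN had r = -0.208 with IL1B.

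Of 11 family ligand genes, 6 were listed, the 4 described above with IL18 and IL33. IL18, an inflammasome-processed cytokine, was listed in the S80A table only. It averaged 631 ± 21.6 scaled reads in S80A cells and 311 ± 32.9 in WT cells at 3 hr, and 135 ± 15.7 in S80A cells and 210 ± 6.51 in WT cells at 0 hr (SD, n = 3 each). IL18 thus passed in opposite directions at the 2 times, at 1.02 ± 0.19 log2 at 3 hr (SE, adjusted p = 0.00520) and -0.64 ± 0.13 log2 at 0 hr (SE, adjusted p = 0.0176). The 3 hr call was kept in all 16 alternatives, and the 0 hr call was lost without S80A replicate 2 or any 1 WT library. IL33, an alarmin, was listed in the WT table only and passed at neither time. It had 9.82 ± 8.95 scaled reads in S80A cells and 21.3 ± 13.1 in WT cells at 3 hr (SD, n = 3 each).

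The remaining pathway genes were taken from lists of receptors, signalling proteins, processing and release factors, and known IL-1-induced genes. Genes that passed at 3 hr only are named after their values were seen. Of 11 receptor and binding protein genes, 5 were listed, and at 3 hr IL1R1 and IL18R1 passed as higher in S80A cells and 0 as lower, 40.0% of the list against 47.0% of all listed genes called. IL1R1, the signalling receptor of both IL-1 agonists, averaged 1305 ± 267 scaled reads in S80A cells and 405 ± 63.8 in WT cells (SD, n = 3 each), 1.68 ± 0.24 log2 apart (SE, adjusted p = 0.00236). IL18R1, the binding chain of the IL-18 receptor, averaged 3624 ± 1337 in S80A cells and 505 ± 66.3 in WT cells, 2.77 ± 0.33 log2 apart (SE, adjusted p = 0.00164). Both calls were kept in all 16 alternatives.

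At 0 hr 1 of the 5 receptor genes passed, 20.0% of the list against 30.7% of all listed genes called. Which ones passed depended on whether the replicate numbers, taken to pair the genotypes at 0 hr, entered the fit as a block. IL1R2, the decoy receptor that binds IL-1 without signalling, averaged 1.83 ± 1.63 scaled reads in S80A cells and 12.4 ± 4.51 in WT cells (SD, n = 3 each), -2.42 ± 0.62 log2 apart (SE, adjusted p = 0.0374), and that call was lost in 6 of 16 alternatives, among them the replicate block (adjusted p = 0.0666). IL1R1 averaged 143 ± 88.1 scaled reads in S80A cells and 37.7 ± 10.4 in WT cells at 0 hr (SD, n = 3 each), 1.68 ± 0.62 log2 apart (SE), with a limma adjusted p of 0.0935. It passed with the block (adjusted p = 0.0461), with edgeR, with DESeq2, in the fit of 12 libraries and without S80A replicate 1 (2.33 log2, adjusted p = 0.00834). At 3 hr IL1R2 averaged 16.5 ± 4.17 in S80A cells and 14.6 ± 2.02 in WT cells and did not pass. IL1RAP, the shared partner chain, and IL18RAP passed at neither time, although with the block IL1RAP passed as lower at 0 hr (-0.98 log2, adjusted p = 0.0412). The median difference over the 5 receptor genes was 0.15 log2 at 3 hr, where it turned to -0.04 under TMM scaling, and -0.49 log2 at 0 hr, where it turned to 0.33 without S80A replicate 1, beside 0.19 over all listed genes at each time.

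Of 20 signalling genes, 7 were listed, and at 3 hr IRAK2 and TAB2 passed as higher and MAP3K8 as lower in S80A cells. That is 42.9% of the list, close to the 47.0% of all listed genes called at 3 hr. At 0 hr 0 passed, and 3 did without S80A replicate 1, where calls over all 3281 listed genes rose from 1007 to 1200. IRAK2, a kinase-like adaptor that sustains IL-1 and TLR signals, averaged 9126 ± 422 scaled reads in S80A cells and 4191 ± 360 in WT cells (SD, n = 3 each). TAB2, which links TRAF6 to the kinase TAK1, averaged 14132 ± 1405 in S80A cells and 7078 ± 686 in WT cells. MAP3K8, the kinase TPL2 held by the p105 precursor of p50, averaged 3156 ± 1149 in S80A cells and 5865 ± 378 in WT cells. At 0 hr MAP3K8 averaged 233 ± 13.5 in S80A cells and 162 ± 30.8 in WT cells, and of the 6 signalling genes in both tables it was the only one whose LPS response differed between genotypes (-1.48 ± 0.35 log2, SE, adjusted p = 0.0353). The 3 hr calls of IRAK2 and TAB2 were kept in all 16 alternatives, that of MAP3K8 was lost when any 1 library but S80A replicate 1 was left out, and its call for the response was lost in 9 of 23. MYD88, the adaptor of IL-1 receptors, differed by -0.53 ± 0.24 log2 at 3 hr (SE, adjusted p = 0.115).

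Of 28 genes for processing and release, 9 were listed. At 3 hr NLRP3 passed as higher, and PYCARD and P2RX7 as lower, in S80A cells, 33.3% of the list against 47.0% of all listed genes. NLRP3, the sensor of the inflammasome that activates caspase-1, averaged 12580 ± 536 scaled reads in S80A cells and 3438 ± 230 in WT cells (SD, n = 3 each), 1.87 ± 0.18 log2 apart (SE, adjusted p = 0.000950). PYCARD, which encodes the adaptor ASC that joins NLRP3 to caspase-1, averaged 305 ± 40.5 in S80A cells and 834 ± 86.9 in WT cells. P2RX7, the ATP-gated channel that triggers the NLRP3 inflammasome, averaged 429 ± 230 in S80A cells and 1400 ± 655 in WT cells. The sensor was thus higher while its adaptor and its ATP receptor were lower, and the median over the 9 genes was 0.05 log2, or -0.15 under TMM scaling. NLRP3 and PYCARD passed in all 16 alternatives, while P2RX7 was lost in 4, among them without S80A replicate 1 (adjusted p = 0.0922), without S80A replicate 3 and without WT replicate 2 or 3.

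At 0 hr P2RX7 passed as lower and CASP4 as higher, 22.2% of the list against 30.7% of all listed genes called. P2RX7 averaged 54.9 ± 22.8 scaled reads in S80A cells and 204.8 ± 58.9 in WT cells (SD, n = 3 each), -1.92 ± 0.39 log2 apart (SE, adjusted p = 0.0199), a call lost without WT replicate 2, WT replicate 3 or S80A replicate 3. CASP4, a caspase that senses cytosolic LPS, averaged 1189 ± 152 in S80A cells and 754 ± 77.3 in WT cells, 0.65 ± 0.15 log2 apart (SE, adjusted p = 0.0266), a call lost in 7 of 16 alternatives. Without S80A replicate 1, 1 of the 9 genes passed as higher and 4 as lower at 0 hr. Over all 3281 listed genes, 786 then passed as higher and 414 as lower. With the replicate block 1 passed as higher and 3 as lower, as PYCARD (adjusted p = 0.0423) and MEFV (0.0496) joined P2RX7. Over all 3281 listed genes, 669 passed as higher and 340 as lower with the block. NLRP3 averaged 2539 ± 368 in S80A cells and 2264 ± 66.2 in WT cells at 0 hr and did not pass. CASP1, which encodes the converting enzyme of IL-1β, was in neither table and was not analysed here.

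**Figure D4:**
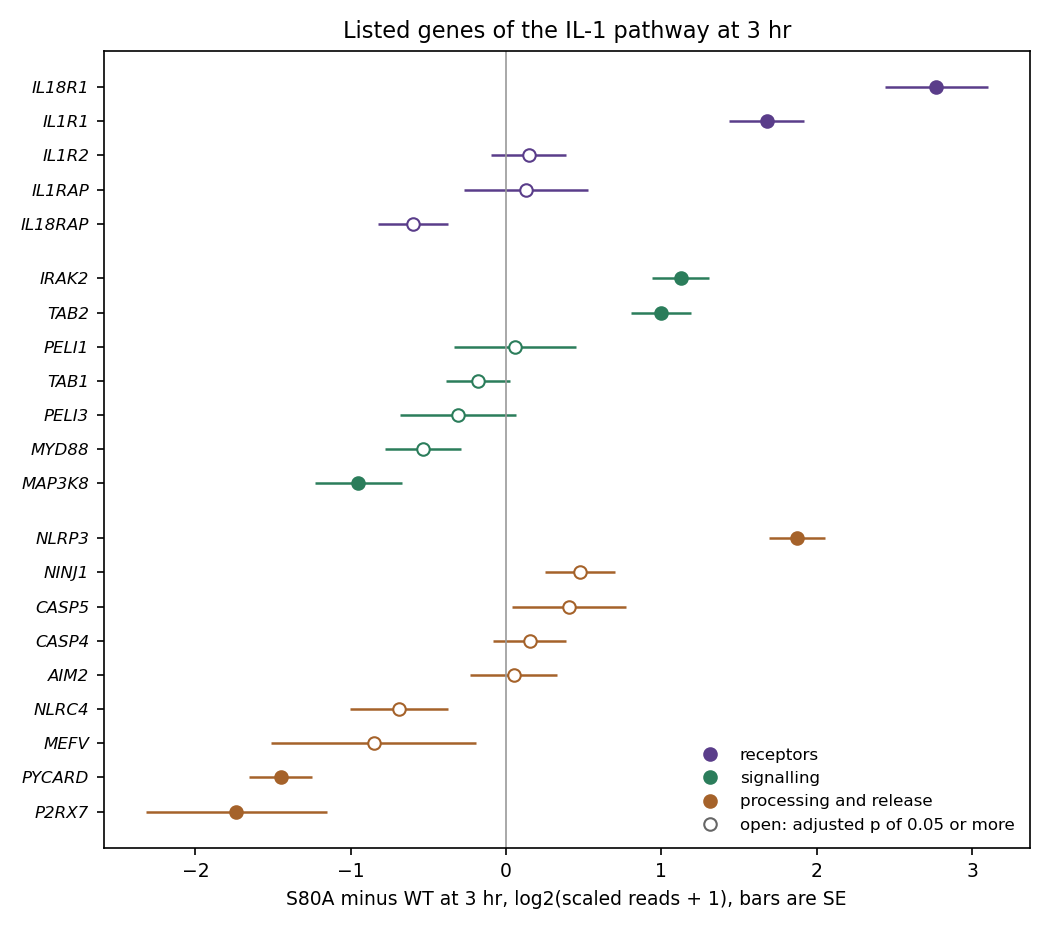
Difference between S80A and WT cells at 3 hr on the log2(scaled reads + 1) scale (x axis) with SE from limma, for the listed genes of the receptor, signalling and processing lists. Of the 21 genes 8 are filled as passing, from IL18R1 at 2.77 to P2RX7 at -1.74.

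Of 34 genes known to be induced by IL-1, 23 were listed, and most of them respond to LPS directly as well. At 3 hr 14 passed as higher in S80A cells, 2 as lower and 7 not, with a median of 1.48 log2 beside 0.19 over all listed genes. The list thus had 60.9% higher and 8.70% lower, where 29.2% of all listed genes passed as higher and 17.7% as lower. IL8, the older symbol of CXCL8, averaged 96621 ± 14497 scaled reads in S80A cells and 27726 ± 9781 in WT cells (SD, n = 3 each). CCL20 averaged 42807 ± 8902 in S80A cells and 3878 ± 1577 in WT cells, and CXCL1 averaged 11768 ± 1378 in S80A cells and 4331 ± 1322 in WT cells. The 2 genes that passed as lower were IL6, at 272 ± 69.2 in S80A cells and 1538 ± 188 in WT cells, and TNFAIP6, at 3308 ± 3145 in S80A cells and 8486 ± 507 in WT cells. The list was therefore not uniform in direction. The counts were 14 and 3 without S80A replicate 1, beside 1090 and 698 over all 3281 listed genes in that setting. TNFAIP6 lost its call in 8 of 16 alternatives, and IL8 and CXCL1 lost theirs in the fit of 12 libraries.

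At 0 hr 5 of the 23 passed as higher in S80A cells and 1 as lower, where 20.1% of all listed genes passed as higher and 10.6% as lower. Those higher were MMP1, SAA1, LIF, ICAM1 and PTGS2. MMP1, a collagenase, averaged 681 ± 657 scaled reads in S80A cells and 5.10 ± 4.44 in WT cells (SD, n = 3 each), 6.30 ± 1.59 log2 apart (SE, adjusted p = 0.0358). SAA1, an acute phase gene, averaged 31.8 ± 12.7 in S80A cells and 1.61 ± 2.13 in WT cells, 3.90 ± 0.66 log2 apart (SE, adjusted p = 0.0119). LIF, a cytokine of the IL-6 family, averaged 5.25 ± 2.18 in S80A cells and 0.29 ± 0.50 in WT cells. ICAM1, a leukocyte adhesion gene, averaged 4139 ± 1860 in S80A cells and 858 ± 247 in WT cells. PTGS2, the inducible cyclooxygenase, averaged 62.6 ± 18.8 in S80A cells and 25.9 ± 4.36 in WT cells. The gene that passed as lower was TNFAIP2, at 1043 ± 349 in S80A cells and 2219 ± 386 in WT cells. CCL20 missed the threshold at 4.14 ± 1.19 log2 (SE, adjusted p = 0.0503), and the median over the 23 genes was 0.49 log2. Leaving out S80A replicate 1 gave 9 genes higher and 1 lower, beside 786 and 414 over all 3281 listed genes in that setting. SAA1 passed in all 16 alternatives, while MMP1 and PTGS2 each lost the call in 5, ICAM1 in 3, LIF in 1 and TNFAIP2 in 6, the replicate block among them (adjusted p = 0.0857), and no gene of these changed direction.

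Of 19 other LPS-induced cytokine genes, 18 were listed, a list that shares IL6, IL8, CSF2 and CSF3 with the preceding one. At 3 hr 4 passed as higher in S80A cells (IL8, CSF2, IL10 and TNFSF15) and 5 as lower (IL6, IL23A, IL12B, IL27 and LTA), with a median of -0.12 log2. The 9 called are 50.0% of the list, near the 47.0% of all listed genes called at 3 hr. The IL12B call was lost when any 1 library but S80A replicate 1 was left out, and the TNFSF15 call in 3 of 16 alternatives, namely the fit of 12 libraries and without replicate 2 of either genotype. LTA lost its call in the fit of 12 libraries. The counts were 7 and 6 without S80A replicate 1, beside 1090 and 698 over all 3281 listed genes in that setting. TNF averaged 13280 ± 2747 scaled reads in S80A cells and 15401 ± 1200 in WT cells and did not pass. IL23A, which encodes a chain of IL-23, averaged 1339 ± 1225 in S80A cells and 10184 ± 2439 in WT cells and was among those lower.

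Of 10 macrophage markers 4 were listed, CD14, CD163, MERTK and FCGR3A, and 1 of the 4 passed at each time. That is 25.0% of those listed, against 47.0% of all listed genes called at 3 hr and 30.7% at 0 hr. Their sum at 3 hr ranged from 2480 to 3030 scaled reads in S80A cells and from 1797 to 2566 in WT cells, and at 0 hr from 5151 to 9912 in S80A cells and from 4593 to 6714 in WT cells. MERTK, an uptake receptor, passed as higher in S80A cells at both times (2.63 log2 at 3 hr and 1.22 log2 at 0 hr). The other listed macrophage markers passed at neither time and did not share a direction. At 0 hr CD163 differed by -1.11 ± 0.32 log2 (SE, adjusted p = 0.0509), which passed in 9 of 16 alternatives. FCGR3A differed by -1.16 ± 0.45 log2 (SE, adjusted p = 0.107; 0.0414 with the replicate block) and CD14 by 0.56 ± 0.38 log2 (SE, adjusted p = 0.305). At 3 hr CD14 differed by 0.74 log2, CD163 by -0.53 log2 and FCGR3A by -0.0038 log2, and CD14 passed without S80A replicate 1 (adjusted p = 0.0174). The median over the 4 markers was 0.37 log2 at 3 hr and -0.28 log2 at 0 hr. Of 10 markers of undifferentiated myeloid cells 3 were listed, GFI1, CEBPE and CD34, and GFI1 alone passed at each time. That is 33.3% of those listed, beside the same 47.0% and 30.7% of all listed genes. Their sum at 3 hr ranged from 210 to 379 in S80A cells and from 634 to 926 in WT cells, and at 0 hr from 466 to 799 in S80A cells and from 2269 to 2575 in WT cells. GFI1, a transcriptional repressor of immature myeloid cells, makes up nearly all of these sums, with means of 554 scaled reads in S80A cells and 2323 in WT cells at 0 hr, and was lower at both times (-2.10 ± 0.23 log2 at 0 hr, SE, adjusted p = 0.00458), while CD34 was near 0 in both genotypes before LPS, at 0.96 ± 1.06 scaled reads in S80A cells and 0.54 ± 0.93 in WT cells. Of 8 epithelial and 6 fibroblast and endothelial markers 0 were listed, and of 7 T and B cell markers only CD79B was. The part of such differences in the IL-1 family values was not tested.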

How the data were processed

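Poly(A) RNA of 12 THP-1 libraries was measured. Per the labels' protocols, stranded TruSeq libraries were read as single ends of 75 bases. Per the submitters' processing notes, HISAT, StringTie, HTSeq, Cuffdiff, DESeq2 and FastQC were used with build GRCh38. Versions, annotation and strand setting are not given in the sources consulted. The authors deposited 2 tables, each with a log2 fold change of 3 hr over 0 hr, its p-value, the p-value after adjustment, and a signal for every library. The signal deposited by the authors is reads divided by 1 size factor per library: 100% of values were whole multiples of the library's unit to within 0.01 reads, which gave the whole reads.

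Genotypes were compared with limma 3.58.1 in R 4.3.3 on log2(scaled reads + 1), a scale that understates changes of genes with few reads. Fits used the 6 libraries of each time and all 3281 listed genes, or, for the difference of the LPS response, 12 libraries and 1562 genes. Adjustment was by Benjamini-Hochberg, with a threshold of 0.05, and there was no filter on low values. edgeR 4.0.16 (quasi-likelihood test) and DESeq2 1.42.0 were run as alternatives on the whole reads, as were other pseudocounts, a filter, other scalings, a replicate block and leaving out libraries. Gene positions are from GENCODE release 29. Tables hold only genes that responded to LPS, so shares describe those genes. Named were the family genes, listed members of each list that passed at 0 hr or for the difference, the 6 IL-1-induced genes with the smallest p at 0 hr, and the genes of closest pattern; genes outside this rule were named after their values were seen. The members and lists were chosen with earlier results of these data known.

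Replicate numbers were checked for pairing. Same-numbered libraries deviated together at 0 hr between genotypes (correlations of 0.188 to 0.259). They also did between times within S80A (0.196 to 0.299) and WT cells (0.153 to 0.343), so the numbers were taken to pair all of these. At 3 hr 1 of the 3 correlations between genotypes was 0.0640, and the numbers were not taken to pair them. The main fits did not use the pairing, which entered only as the replicate block among the alternatives. No replicates agreed within sampling noise (chi-square per gene 8.87 to 192). On simulated counts of 3281 genes, 11% of changes of 1 log2 and 82% of changes of 2 log2 were recovered at 3 hr. At 0 hr the shares were 12% and 89%. Each simulation changed 100 genes by each size. Its calls numbered 95 at 3 hr and 105 at 0 hr, against 1541 and 1007 in the data. Adjustment was therefore stricter in the simulation, so these shares do not give the power of the tests reported here.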

Additional observations from a re-analysis of the deposited data

Results flagged for a closer look

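None of the 4 listed IL-1 family genes met a criterion for a closer look, and groups of 3 libraries are too small for the test of a single distant library. Of 56 other genes of the related lists and marker lists that were tested, 7 (12.5%) had an LPS response that differed between S80A and WT cells by the limma interaction test (adjusted p under 0.05 over 1562 genes), where 4.48% of all tested genes did.

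Among IL-1-induced genes, the response of CSF2 was larger in S80A cells by 4.76 ± 0.96 log2 (SE, adjusted p = 0.0168), that of CXCL6, with 3 reads in S80A cells and 15 in WT cells at 0 hr, by 2.91 ± 0.72 (adjusted p = 0.0441) and that of CXCL2 by 2.65 ± 0.55 (adjusted p = 0.0209). The response of IL6 was smaller, at -2.24 ± 0.38 log2 (SE, adjusted p = 0.00798). CSF2 had 0 reads in all 6 libraries at 0 hr, so its value is the 3 hr difference between genotypes over the pseudocount and not a comparison of 2 measured responses. IL6 had 0 reads in S80A cells and 1 read in WT cells at 0 hr, and the same limit holds for it. With edgeR and DESeq2 neither passed (adjusted p = 1.000 and 0.335 for CSF2, 0.897 and 0.691 for IL6). IL10, an anti-inflammatory cytokine, had a larger response by 2.97 ± 0.52 log2 (SE, adjusted p = 0.00798). MAP3K8, of the signalling list, differed by -1.48 ± 0.35 log2 (SE, adjusted p = 0.0353). The macrophage marker MERTK had LPS responses of -2.12 log2 in S80A cells and -3.53 log2 in WT cells, a difference of 1.41 ± 0.30 log2 (SE, adjusted p = 0.0210). Of these, IL10 was called in all 23 alternatives, CXCL6 was lost in 13, MAP3K8 in 9, CSF2 and MERTK in 3, and CXCL2 and IL6 in 2 each. None of the 7 changed direction in any of them.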

How the results depend on the processing

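Over 350 alternative values of the 4 genes in the 5 comparisons, 323 kept both direction and side of the threshold, 12 lost a call, 12 gained one and 3 reversed. The reversals were IL1A at 0 hr without S80A replicate 3 (-0.048 log2, within -0.048 to 0.98 as libraries were left out) and the difference of the IL36G response with edgeR (-0.64) and DESeq2 (-0.22). The replicate block changed no call of the 4 genes (IL1B at 0 hr, adjusted p = 0.104) and gave 1493 calls at 3 hr, 1009 at 0 hr and 104 for the difference of the response. IL1B at 0 hr passed in 6 of 16 alternatives (adjusted p from 9.73e-05 to 0.148), among them the filter at 10 scaled reads (0.0367), a mean-variance trend (0.0491) and the fit of 12 libraries (0.00421). DESeq2 gave no adjusted p for IL1A and IL36G at 0 hr. Over all genes, leaving out 1 library gave 497 to 1200 calls at 0 hr (1007 with all). For the difference of the response, leaving out 1 library, or S80A replicate 1 at both times, gave 36 to 187 calls (70 with all). The 187 came without S80A replicate 1 at both times, against 117 without its 0 hr and 123 without its 3 hr library. That difference also had 124 calls with a pseudocount of 10, 155 with DESeq2 and 464 over genes in either table. Under TMM, calls divided into 798 higher and 743 lower at 3 hr (959 and 582 as deposited) and 492 and 457 at 0 hr (660 and 347). The cause of these changes was not tested. Genes under about 10 reads a group, IL1A and IL36G at 0 hr, are limited by depth.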
